A study of Humulus lupulus with 6 samples.

Results

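In 208 loci of the hop genome, scaled fragment counts in both the apical meristem and the growing stem were at least 4-fold above those in the leaf. The 208 loci were chosen from 33811 loci that had a gene model in the count tables of all 3 tissues, out of 67811 loci in all. A locus joins the gene models of the tables that overlap on a strand by at least 1 base of exon. A locus was taken where it reached at least 10 normalised CPM (fragment counts scaled to a common library size) in meristem and in stem and was at least 4-fold above leaf in each. The limit of 10 CPM in both meristem and stem was met by 10368 loci, and the 208 loci are 2.01% of these. The folds over leaf given here therefore describe the choice of loci and are no finding about them.

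The RNA came from apical meristems, actively growing stems and young leaves of hop (Humulus lupulus), cultivar Cascade. The plants were untreated apart from sprays against insects and fungi, and the labels name no genotype other than the cultivar. The labels list 2 samples for each tissue, but the tables hold 1 count column per tissue. Whether a column holds 1 sample or both is not known, so each tissue may rest on 1 library. The column totals were 135877224 fragments in meristem, 125454712 in stem and 162799212 in leaf. With 1 column per tissue there is no replicate error and no test. The intervals given are exact binomial (Clopper-Pearson) 95% intervals. They cover counting error only and do not cover variation between plants or libraries.

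Cells divide in the apical meristem at the tip of the shoot, and new leaves and stem tissue arise from it. A growing stem holds elongating cells and developing vascular tissue, whereas a leaf blade is mainly photosynthetic tissue. In bulk RNA, fewer cells of a type and less RNA per cell cannot be told apart. The tables number their gene models and do not pair the numbers with gene names. Of these numbers 0 matched the RefSeq gene table used, so loci are named by contig, start and end on the authors' Cascade assembly, and neither function nor tissue markers can be assigned.

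The 208 loci held 0.837% of all counted fragments in meristem (95% interval 0.835 to 0.838%), 1.304% in stem (1.302 to 1.306%) and 0.0783% in leaf (0.0779 to 0.0788%). Their median level was 17.6 CPM in meristem, with quartiles of 13.9 and 33.4 and a range of 10.3 to 512. In stem the median was 24.4 CPM, with quartiles of 15.3 and 46.2 and a range of 10.1 to 770. In leaf it was 2.65 CPM, with quartiles of 1.76 and 4.58 and a range of 0.0324 to 62.5. Many of the loci thus lay close above the CPM limit: 90 reached 20 CPM in meristem and 124 did in stem. At 100 CPM or more stood 12 loci in meristem, 19 in stem and 0 in leaf, and 10 of them passed 100 CPM in both meristem and stem. Loci without a leaf gene model were left out by the choice, and leaf fragments were counted at every one of the 208 loci. Of the 208 loci, 17 were below 1 CPM in leaf, 20 were at 10 CPM or more, and 10 had under 100 leaf fragments.

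Over the 10368 loci at the CPM limit, the medians were 32.5 CPM in meristem, 35 in stem and 34.9 in leaf. Per kilobase of gene model, the only scale on which levels of different loci are compared here, the medians of the 208 loci were 8.19 CPM per kb in meristem, 11.8 in stem and 1.96 in leaf. Those of the 10368 loci were 18.8, 21.1 and 20.9 CPM per kb in the same order of tissues. The medians of the selected loci were thus below those of all loci at the limit in every tissue. That the gap was widest in leaf follows from how the loci were chosen and is no finding.

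**Figure D1:**
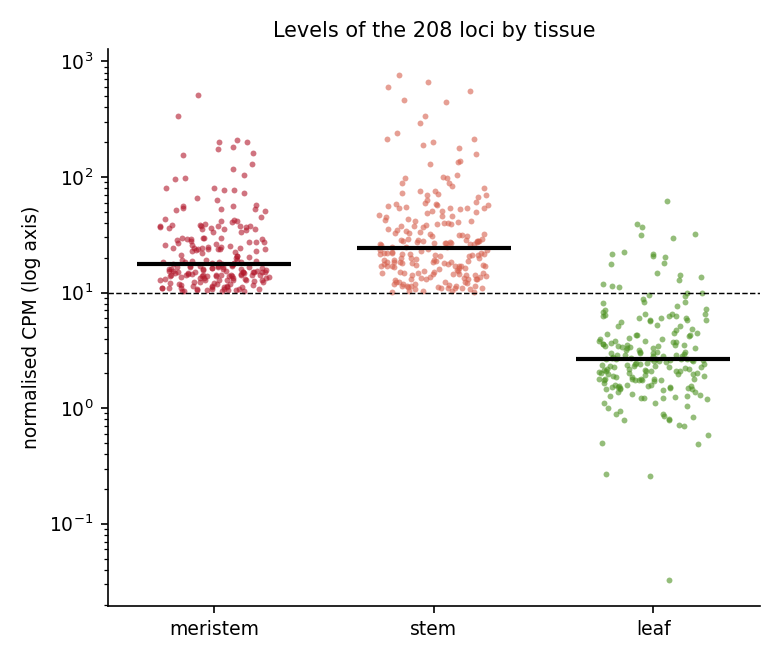
Normalised CPM (log axis) of each of the 208 loci in meristem, stem and leaf. Each point is 1 locus, the thick bars are the medians (17.6, 24.4 and 2.65 CPM) and the dashed line is the limit of 10 CPM, which 20 loci also reached in leaf.

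The smaller of the 2 folds over leaf (meristem over leaf and stem over leaf) ranged from 4.01 to 449, with a median of 5.89 and quartiles of 4.73 and 8.95. It was at least 8 in 62 loci, at least 16 in 17, at least 32 in 4 and at least 100 in 1. The loci crowd at the limit. The smaller fold was under 4.5 in 41 of the 208 loci, while 64 further loci at the CPM limit had a fold of 3.5 to 4 and were not taken. In 35 of the 208 loci the counting interval of a fold reached below 4. Over leaf, the median fold was 6.73 for meristem and 8.57 for stem.

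**Figure D2:**
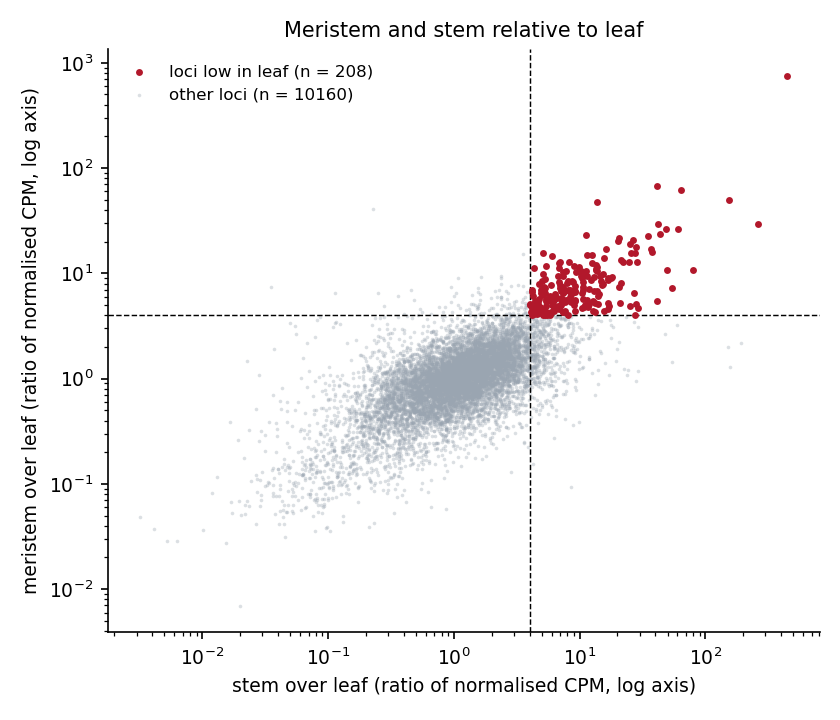
Ratio of meristem to leaf (vertical, log axis) against ratio of stem to leaf (horizontal, log axis) of normalised CPM. Red points are the 208 selected loci, grey points are the other 10160 loci at 10 CPM or more in meristem and stem, and the dashed lines are the 4-fold limits; the selected loci are the upper right edge of a continuous cloud.

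Just inside the fold limit lay 001986F:10776-14167 and 000149F:1523592-1531306, both with a smaller fold of 4.01. Just outside it lay 000641F:427510-430563 with 3.99 and 011461F:4305-6065 with 3.98. At the CPM limit, 000004F:478479-484379 had 10.1 CPM in stem and was taken. 003864F:168276-174629 had 9.98 CPM in stem and was not.

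The largest fold belonged to 002530F:356972-360215 on the plus strand, a locus with 1 exon (STRG.34960 in the meristem table, STRG.29871 in the leaf table). It had 3869 fragments in meristem, 2054 in stem and 4 in leaf, which are 24.4, 14.5 and 0.0324 CPM. The fold over leaf was 753 in meristem (294 to 2764) and 449 in stem (175 to 1649). Its models spanned 3244 bases in meristem and 2670 in stem, against only 256 in leaf, so that most of the locus was not counted in leaf. Per base of model, the folds were 59.4 in meristem and 43.0 in stem.

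The loci with the next largest folds also had short leaf models, except for 000534F. At 000006F:3344124-3347038, a plus-strand locus of 3 exons, there were 2624 fragments in meristem, 2403 in stem and 33 in leaf. The folds over leaf of 61.9 and 63.7 became 9.55 and 10.4 per base, since the models had 1685 bases in meristem and 1589 in stem, against 260 in leaf. At 000041F:418460-420928 on the minus strand there were 12359 fragments in meristem, 33987 in stem and 192 in leaf. Its folds of 50.1 in meristem and 155 in stem became 5.39 and 16.6 per base.

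000534F:160600-162483, whose leaf models had almost the length of the meristem model, is described further on with the stem-leaning loci. At 007357F:18177-22846 on the minus strand, 2792 fragments in meristem, 1516 in stem and 32 in leaf gave folds of 67.9 and 41.4, or 18.2 and 20.6 per base. At 000375F:906873-907726 on the plus strand, 2367 fragments in meristem, 2993 in stem and 62 in leaf gave folds of 29.7 and 42.2, or 10.3 and 14.6 per base. All of these loci stayed above 4-fold per base, but their order by size changed with the scale.

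The locus with the most fragments in the lower of meristem and stem, 001862F:96821-99477 on the minus strand, depended on the scale for its direction. It had 81271 fragments (512 CPM) in meristem, 93451 (661 CPM) in stem and 7721 (62.5 CPM) in leaf, folds of 8.19 and 10.6. Its models held 2581 bases in meristem and 2609 in stem, against 218 in leaf. Per kilobase it stood at 198 CPM in meristem, 253 in stem and 287 in leaf, so that leaf was the highest on this scale.

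The next locus, 004482F:264446-268703 on the minus strand, kept its contrast on both scales. Its models had 13 exons in each table and lengths of 2135, 2299 and 2089 bases in meristem, stem and leaf. With 53264, 78735 and 2667 fragments in that order of tissues, it stood at 335 CPM in meristem, 557 in stem and 21.6 in leaf. The fold over leaf was 15.5 in meristem (14.9 to 16.2) and 25.8 in stem (24.8 to 26.8), and per base it was 15.2 and 23.5. Both folds lay well clear of the limit of 4.

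Long genes with many exons were also among the most counted. 000002F:4108262-4151750 on the minus strand, with up to 30 exons and an intron of 9952 bases, had 200.5 CPM in meristem, 212.0 in stem and 29.8 in leaf. 001439F:157612-172235 on the minus strand, with up to 27 exons, had 175 CPM in meristem, 190 in stem and 39.0 in leaf, and its smaller fold of 4.505 became 3.99 per base. 001036F:280911-285515 and 003890F:82127-88753, both on the plus strand, had 202 and 182 CPM in meristem, 201 and 339 in stem, and 37.1 and 32 in leaf. Each of these loci had 1 model in meristem and in stem and 2 models in leaf.

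Meristem and stem were at similar levels in most of the 208 loci, with stem the higher one more often. The median log2 ratio of meristem to stem was -0.29, with quartiles of -0.81 and 0.07, which is a median stem level 1.22 times that of meristem. Over the 10368 loci at the CPM limit the median was -0.13, with quartiles of -0.76 and 0.53. Stem was above meristem in 141 of the 208 loci (67.8%), against 55.6% of the 10368 loci. In 188 of the 208 loci the counting interval of the ratio excluded 1.

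The 2 tissues were within 2-fold of each other in 165 of the 208 loci (79.3%), against 68.6% of the 10368 loci, and within 1.25-fold in 72 (34.6%), against 26.3%. Stem was at least 2-fold above meristem in 37 loci (17.8%), against a background of 18.1%. Meristem was at least 2-fold above stem in 6 loci (2.88%), against 13.3%. The log2 ratio ranged from -3.15 to 1.78 over the 208 loci. At least 4-fold differences favoured stem in 10 loci (4.81%, against 4.06%) and meristem in 0 loci (against 2.84%). The lower share of meristem-leaning loci is a description: meristem, stem and leaf levels all entered the choice of loci, and no replicates are there to test the difference.

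**Figure D3:**
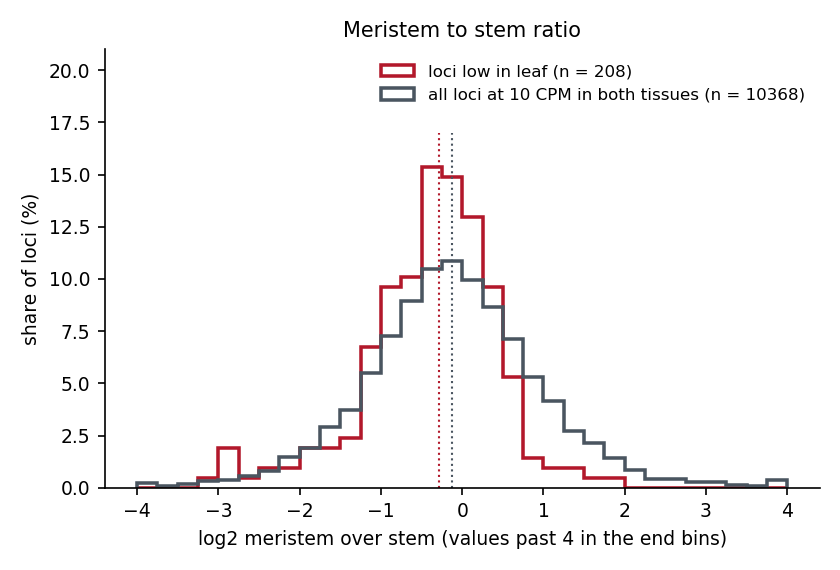
Distribution of the log2 ratio of meristem to stem as a share of loci in percent, in bins of equal width, for the 208 selected loci (red) and all 10368 loci at 10 CPM or more in both tissues (grey). Dotted lines mark the medians of -0.29 and -0.13, and the red outline is thin on the meristem side, where 2.88% of the selected loci and 13.3% of all loci are at least 2-fold higher in meristem.

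The highest ratio of meristem to stem was at 000155F:406138-412135 on the minus strand, with 14 exons in meristem and in stem. Counts were 33421 in meristem, 8638 in stem and 549 in leaf, or 210 CPM, 61.1 CPM and 4.44 CPM. Meristem was 3.44-fold above stem (3.36 to 3.53). The next were 002102F:362530-365076 with a ratio of 3.07 (129, 42.0 and 8.21 CPM in meristem, stem and leaf), 002868F:13931-33196 with 2.59 (29.5, 11.4 and 2.65 CPM) and 000000F:876764-881568 with 2.45 (36.0, 14.7 and 2.45 CPM). In these loci the levels step down from meristem to stem to leaf, an order set by how they were chosen.

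Stem-leaning loci went further from equality. At 000534F:160600-162483 on the minus strand, a locus of 4 exons, there were 2297 fragments in meristem, 18167 in stem and 61 in leaf, or 14.5, 128 and 0.494 CPM. Stem was 8.88-fold above meristem (8.51 to 9.28). A locus on the other strand overlaps it and had 1488 fragments in meristem, 3694 in stem and 1840 in leaf. No source used here says whether the library kit kept strand information, and without it fragments of both loci could not be told apart.

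At 005544F:144990-145985 on the plus strand, a single-exon locus, levels were 38.6 CPM in meristem, 295 in stem and 7.11 in leaf, with stem 7.64-fold above meristem (7.43 to 7.85). At 004517F:307075-308962 on the plus strand they were 104 CPM in meristem, 770 in stem and 14.2 in leaf, with a stem to meristem ratio of 7.43 (7.31 to 7.55). Per kilobase this locus was the highest of the 208, at 231 CPM per kb in meristem and 1250 in stem. At 000190F:149692-153718 on the minus strand they were 14.0 CPM in meristem, 103 in stem and 1.29 in leaf, with a ratio of 7.39 (7.07 to 7.73). The order of stem, meristem and leaf in these loci follows from how they were chosen and is no finding.

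Equal levels were found at 000611F:562418-566426 on the plus strand, with 19.1 CPM in meristem, 19.1 in stem and 1.54 in leaf. 000121F:1089064-1091802 on the minus strand had 11.2, 11.1 and 1.76 CPM in meristem, stem and leaf. For both, the interval of the meristem to stem ratio includes 1 (0.949 to 1.05 and 0.935 to 1.07).

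The 37 stem-leaning loci had median levels of 18.4 CPM in meristem, 55.8 in stem and 3.0 in leaf. In the 165 loci within 2-fold, the medians were 16.9 CPM in meristem, 20.5 in stem and 2.59 in leaf. In the 6 meristem-leaning loci they were 38.4 CPM in meristem, 17.3 in stem and 2.55 in leaf. The leaf medians were thus close in CPM, but the leaf models differed in length. Their median length was 1318 bases in stem-leaning loci, 1440 in loci within 2-fold and 1779.5 in meristem-leaning loci. The classes were not compared per kilobase. The median number of exons was 6 in stem-leaning loci, 8 in loci within 2-fold and 4 in meristem-leaning loci.

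In exon number the 208 loci were close to the background. Exons were counted after overlapping or touching exons of each gene model had been merged over its transcripts. More than 1 exon was found in 195 of them (93.75%), against 93.8% of the 10368 loci. The median number of exons, taken from the single model with the most, was 7 against 6. The other sets chosen by the same limits had fewer: 4 exons and 84.5% multi-exon loci in the 1104 loci low in stem, and 3 exons and 81.8% in the 220 loci low in meristem. At least 20 exons were found in 13 of the 208 loci (6.25%, against 4.35% of the 10368). The longest intron had a median of 735 bases, against 769, and exceeded 5 kb in 14 loci (6.73%, against 8.91%).

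The loci with the most exons were 003113F:286853-309452 with 41, 004021F:179403-195648 with 37 and 001263F:185814-198769 with 35. In leaf, their sequence was covered by 7, 4 and 5 separate models. 003113F had 52.2 CPM in meristem, 31.5 in stem and 6.21 in leaf. 004021F had 96.7, 99.1 and 20.3 CPM, and 001263F had 63.6, 57.2 and 13.7 CPM, in the same order of tissues. Of the 13 loci with 1 exon, the highest levels were those of 005544F, given above, and of 006621F:7759-8543 on the minus strand, with 24.8 CPM in meristem, 137 in stem and 4.86 in leaf.

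The gene models themselves differed by tissue at these loci. Of the 208 loci, 37 had more than 1 model in meristem (17.8%), 35 in stem (16.8%) and 133 in leaf (63.9%). Over the 10368 loci these shares were 8.75% in meristem, 9.20% in stem and 19.6% for the leaf table. Leaf had 1 model in 75 loci, 2 in 55, 3 in 40 and 4 or more in the rest, up to 11. The share of loci split in leaf grew with the number of exons: 0% of the 13 single-exon loci had several leaf models, 44.7% of those with 2 to 4 exons, 70.1% with 5 to 9, 77.6% with 10 to 19 and 100% of the 13 loci with 20 or more. In the background these shares were 3.41, 10.9, 17.3, 30.8 and 56.8%.

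The leaf models were shorter in total as well. The median length was 2249.5 bases in meristem and 2155.5 in stem, against 1416.5 in leaf, whereas over the 10368 loci the medians were 1804.5 bases in meristem, 1754.5 in stem and 1670 in leaf. The length in leaf was a median of 71.3% of the shorter of meristem and stem, against 99.9% in the background. It was at most 50% in 38 loci (18.3%, against 0.936%) and within 10% in 45 loci (21.6%, against 83.8%). In the loci low in stem and low in meristem, the low tissue's models had medians of 95.6% and 98.8%.

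Splice structure was compared intron by intron, an intron being a gap between the merged exons of a gene model. An intron that another transcript of the same model covers is missed in this way. Of the introns of meristem models, a mean of 80.7% recurred with both ends in the stem models of the same locus and 58.6% in the leaf models, against 90.5 and 89.2% in the background. Every meristem intron recurred in stem in 77 of 191 spliced loci (40.3%, against 67.0%) and in leaf in 35 (18.3%, against 64.5%). In the other direction, a mean of 79.7% of the introns of leaf models recurred in stem and 74.0% in meristem, and 75.4% of those of stem models recurred in meristem and 58.3% in leaf. Introns of meristem and stem models were thus missing most often from the leaf models, which are the shorter ones, while leaf introns recurred in stem about as often as meristem introns did. All of these means were below those of the background.

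Low leaf counts and split leaf models also went together in loci that fell short of the fold limit. Between the quartiles of their leaf counts (218 to 566 fragments), 69 of 104 of the selected loci had more than 1 leaf model (66.3%). Of the 81 other loci at the CPM limit with leaf counts in the same range, 50 did (61.7%). With medians of 12.0 CPM in meristem and 16.3 in stem, these 81 loci border the selection and are no independent set. The leaf models covered 71.7% of the shorter other model in the selected loci and 88.7% in the others, whose median leaf count was higher (328 against 486 fragments). Few fragments because of short models and short models because of few fragments cannot be told apart in tables counted against models of each tissue alone.

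Dividing each count by the length of its models lowered the folds over leaf. Per base, both folds were at least 4 in 106 of the 208 loci (51.0%), the smaller one was 2 to 4 in 93, and it was under 2 in 9. Below 1 was only 001862F. The median of the smaller fold was 4.07 per base (quartiles 3.22 and 5.49), against 5.89 from counts. Over all 10368 loci, 110 (1.06%) met the fold limit per base, 4 of them outside the 208. In the loci low in stem and low in meristem, 91.8 and 77.7% still met the limit per base. The share that stayed at 4-fold was smallest among loci of 20 or more exons, at 2 of 13. This class lay nearest the limit from the start, with a median smaller fold of 4.505 from counts and 3.69 per base. The median fell further in every other exon class, for example from 6.79 to 4.46 in loci of 2 to 4 exons.

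**Figure D4:**
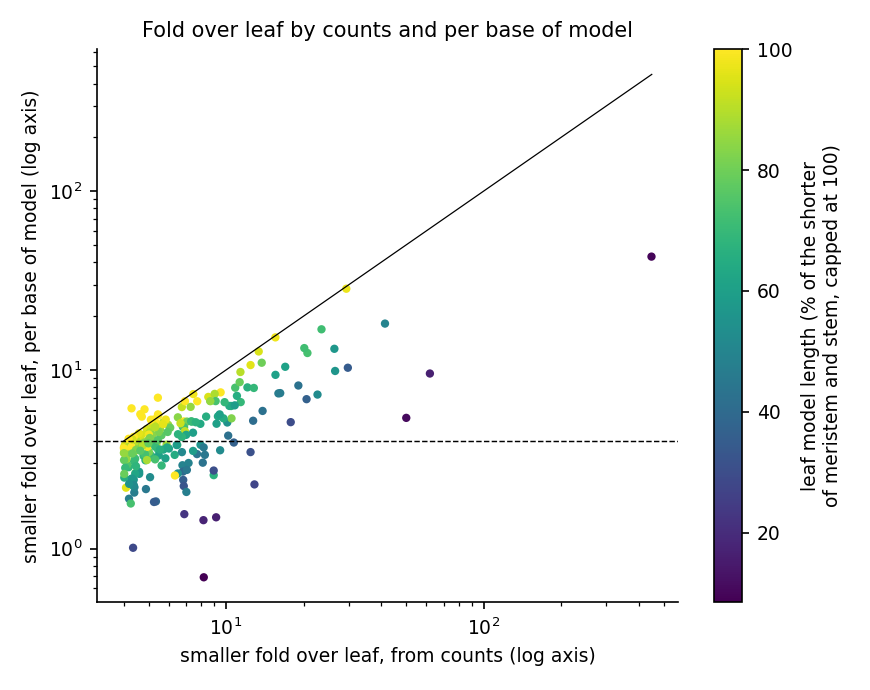
Smaller fold over leaf per base of gene model (vertical, log axis) against the same from counts (horizontal, log axis) for the 208 loci; colour gives the length of the leaf models in percent of the shorter of meristem and stem. Points on the solid line have the same fold on both scales, 106 points lie at or above the dashed line at 4-fold, and the points furthest below the solid line are those with the shortest leaf models.

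Model length had least room to act in 11 loci that had 1 model in each table and lengths within 10% of each other. These loci were chosen at 4-fold or more from counts, so near-equal lengths alone hold their per-base folds near 4 or above. Among the 11 loci, 9 were at least 4-fold above leaf per base. Over the 11 loci the smaller fold per base ranged from 3.64 to 15.2, with a median of 5.03. The highest was 004482F, given above. At 000612F:474349-479821 on the plus strand, levels were 162 CPM in meristem, 445 in stem and 21.7 in leaf. At 001211F:378197-382333 on the minus strand, they were 118 CPM in meristem, 468 in stem and 22.5 in leaf. In both, stem was well above meristem (2.75-fold and 3.95-fold).

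At the other end of the ratio among these 11 loci, 002857F:186422-187659 on the minus strand, a single-exon locus, had 26.7 CPM in meristem, 12.4 in stem and 2.27 in leaf. 006446F:95902-97846 on the plus strand had 66.2 CPM in meristem, 39.8 in stem and 9.52 in leaf. The median log2 ratio of meristem to stem over the 11 loci was -0.46, with a range of -2.46 to 1.11. They were set apart after their values had been seen.

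Scaling had a large effect on how many loci met the limits, because leaf was scaled against the other tissues. The TMM factors were 1.17 for meristem, 1.13 for stem and 0.759 for leaf, so that a count ratio of meristem to leaf is 1.54 times larger without them and one of stem to leaf 1.48 times larger. The ratio of meristem to stem changes by only 1.04 times. Without the factors, 587 of 11266 loci at the CPM limit (5.21%) met both limits, and all 208 loci were among them. They had to be, since their CPM in meristem and stem and their folds over leaf all rise without the factors. The median log2 of the lower of meristem and stem over leaf, taken over the 10368 loci, was -0.26 with the factors and 0.34 without them.

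Without the factors the 208 loci had a lowest fold of 5.96 and a median of 8.85. The rise of the lowest fold above 4 is set by the factors and is no finding. Of the 379 loci gained, 341 had a fold under 4 with the factors and 72 were below the CPM limit, 34 of them both. Their fold with the factors had a median of 3.10 and a minimum of 2.60, near the lowest value that the factors allow. Their values were near those of the 208 loci: with the factors their median log2 ratio of meristem to stem was -0.32, 92.6% had more than 1 exon, the median number of exons was 7, and 54.6% had more than 1 leaf model.

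Other scalings gave 197 to 426 loci. TMM with meristem or leaf as the reference column, tried after the data were seen, gave 197 and 201 loci, RLE factors 200, upper-quartile factors 264, and totals without loci at 1000 CPM or more, with no factors, 426. TMM factors estimated only on 8505 loci with 1 model per table and lengths within 10%, a setting added after the data were seen, gave a leaf factor of 0.836 and 293 loci. With the other tissues held, lowering the leaf factor to 0.8 of its value left 142 loci and raising it to 1.2 times gave 295. No step or plateau marks a natural number of such loci.

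**Figure D5:**
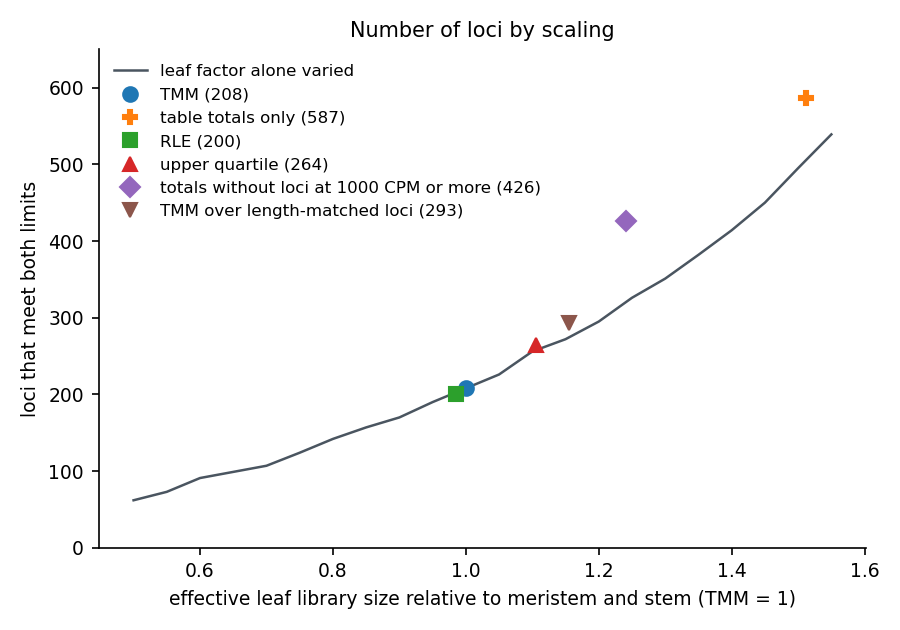
Number of loci that met both limits (vertical) against the effective leaf library size relative to those of meristem and stem, set to 1 for TMM (horizontal). The line varies the leaf factor alone, and each of the 6 symbols is a full scaling with its number of loci, among them 208 with TMM and 587 with table totals only; symbols lie off the line where meristem and stem CPM change too.

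The 208 loci were spread over 194 of the 6041 contigs that carry a locus with models in all tables, 110 on the plus and 98 on the minus strand. More than 1 lay on 13 contigs, and 7 pairs were direct neighbours among loci with models in all tables, 6 of these on the same strand. The closest were 001720F:491129-497417 and 497474-498268, 56 bases apart, with 37.4 and 10.7 CPM in meristem, 28.9 and 10.7 in stem, and 3.17 and 1.04 in leaf. Next came 002630F:440738-445358 and 445503-451024, 144 bases apart, with 16.1 and 23.6 CPM in meristem, 11.5 and 13.0 in stem, and 1.57 and 1.86 in leaf. In both pairs meristem was at or above stem in each locus.

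At 002140F:341065-345618 and 346125-353379, 506 bases apart, the levels were 33.7 and 27.3 CPM in meristem, 59.8 and 55.0 in stem, and 2.17 and 6.77 in leaf. At 000006F:3339098-3342704 and 3344124-3347038, 1419 bases apart, they were 10.7 and 16.5 CPM in meristem, 11.7 and 17 in stem, and 1.80 and 0.267 in leaf. Each pair lies on the plus strand, and whether close neighbours are parts of 1 gene was not tested.

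Neighbours that were not among the 208 loci were at least 4-fold above leaf in meristem and stem, at any level, in 38 of 327 cases (11.6%), against 4.91% of 55540 neighbours of all loci. At a distance of 1000 bases or more the share was 6.61% (17 of 257), against 4.87%. The excess was thus mainly among close neighbours.

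A gene model on the other strand shared exonic sequence with 16 of the 208 loci (7.69%), against 11% of the 10368 loci, 17% of the loci low in stem and 37.3% of those low in meristem. Of 17 such partners, 1 had models in all tables, that of 000534F. The others had between 13 and 132 fragments in any table that held a model, far below the 208 loci themselves.

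Some of the 208 loci resembled each other in exon structure. Runs of at least 4 internal exons (merged as above) with equal lengths in the same order were looked for, since copies of a gene often keep them. Of the 137 loci with enough internal exons, 45 had such a look-alike anywhere in the tables (32.8%), against 51.9% of 5859 background loci. In 7 cases both loci belonged to the 208. The longest shared run was that of 002831F:194503-210599 and 003113F:286853-309452, with 13 exons and 1908 bases.

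These 2 loci had 41.3 and 52.2 CPM in meristem, 24.9 and 31.5 in stem, and 5.26 and 6.21 in leaf. Their log2 ratios of meristem to stem were both 0.73. At 001028F:72253-78572 and 001036F:280911-285515, which share internal exons of 57, 183, 85, 91, 165, 120 and 76 bases, levels were 155 and 202 CPM in meristem, 213 and 201 in stem, and 31.4 and 37.1 in leaf. At 006179F:166692-172102 and 006539F:127106-132460, with exons of 33, 78, 44, 41, 83, 92 and 112 bases, they were 23.6 and 22.4 CPM in meristem, 55.8 and 39.7 in stem, and 1.48 and 2.68 in leaf. In both loci of this last pair stem was above meristem, but by at least 2-fold only at 006179F.

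The other pairs were 000611F with 001849F:602729-611571, 003890F with 004789F:63116-66937, 001074F:260038-266995 with 001434F:400447-407450, and 000240F:998116-1004584 with 004083F:120985-126439. Over the 7 pairs the log2 ratio of meristem to stem differed by 0.0011 to 0.995 between partners, with a median difference of 0.26. The widest was 000611F, at 19.1 CPM in meristem and 19.1 in stem, against 23.7 and 47.2 CPM at 001849F. Equal exon lengths do not show common descent, and near-identical copies may have lost fragments that align to several places, so levels in such pairs are uncertain.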

How the data were processed

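Per the file headers, the authors counted paired reads with featureCounts 1.6.3 (strand setting 1, otherwise default options) against a separate gene model file for each tissue. The deposited values are raw counts of fragments per gene model. HISAT2 2.1.0 and StringTie 1.3.3b are named in the submitters' processing notes. The headers name a Cascade assembly that was masked and deduplicated. Its build name is not given. A model that is shorter or missing in a tissue lowers that tissue's counts, and default options leave out reads that align to several places.

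From the counts, models were joined into loci, summed per tissue and scaled to CPM with the table totals and TMM factors (edgeR 4.0.16, R 4.3.3), estimated on 33671 loci. Python 3.11.15 with pandas 2.3.3, numpy 2.4.6, scipy 1.17.1 and matplotlib 3.10.9 did the rest. A count of 0 would have been raised to 3 fragments, but none of the 208 loci had fewer than 4 in leaf. One fragment was worth 0.00630 CPM in meristem, 0.00707 in stem and 0.00809 in leaf. The selection rule was also run on simulated counts with planted decreases in leaf. These counts held counting error only, with no effect of split or short models and no variation between libraries. The run therefore says nothing about those limits.

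Named loci were those with the 6 largest folds over leaf, the 6 highest levels, the 4 highest and 4 lowest meristem to stem ratios, the 2 nearest to 1, the 3 with most exons, the 2 highest single-exon loci, those next to the limits and the 4 closest neighbouring pairs. Loci in the paragraphs on equal model lengths and on shared exon lengths were added after their values were seen. The 208 loci, the limits and the naming rule were chosen with earlier results of these data known. Alternatives were other scalings, limits, joining by span, counts per base and loci with 1 model per table.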

Additional observations from a re-analysis of the deposited data

How the results depend on the processing

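The number of loci changed most with the settings. It was 587 without TMM factors, 426 with totals that leave out loci at 1000 CPM or more, 1256 at a CPM minimum of 1, 79 at a minimum of 20, 985 at a fold of 2, 62 at a fold of 8, 110 with counts per base of model, 66 where each table had 1 model and 11 where lengths were also within 10%. It stayed within 1.5 times of 208 (192 to 293) under RLE, upper-quartile and other TMM settings, with no low-count filter, with loci joined by span, and after removal of loci that an opposite-strand model overlaps. The number at least 4-fold above leaf per base, 106, became 354 without factors, 243 with the reduced totals, 566 at a CPM minimum of 1, 46 at 20, 50 at a fold of 8, 38 with 1 model per table, 9 with equal lengths and 166 with TMM over length-matched loci. The multi-exon share became 79.6% at a CPM minimum of 1 and 81.8% with 1 model per table, with or without equal lengths. The median log2 ratio of meristem to stem was below 0 in every setting run, from -0.26 without factors to -0.46 with equal lengths, and was -0.40 with counts per base, against -0.29. The direction over leaf turned in 1 named locus, 001862F, whose log2 smaller fold was -0.53 per base. The sign of the log2 ratio of meristem to stem changed under at least 1 scaling in 000611F, 000121F, 001036F, 004021F, 000006F:3344124-3347038 and 003864F, all near a ratio of 1, and per base also in 007357F and 011461F. The other causes of these changes were not tested.

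No paired analysis was possible because each tissue has 1 count column that carries no replicate number. Fits with a replicate block and fits without each replicate in turn were not run for the same reason. Differences between plants are therefore not covered by any value here, and the counting interval of a fold reaches below 4 in 35 of the 208 loci.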

Other observations

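Outside the 208 loci, 154 loci shared a run of at least 4 internal exon lengths with one of them. Of these, 82 reached the CPM limit in meristem and stem. Their smaller fold over leaf had a median of 1.44, was under 1 in 26 and 2 to 4 in 27, and 32.9% were at least 2-fold above leaf in both tissues, against 9.50% of all 10368 loci at the limit, whose median was 0.837. The longest run, 17 of 17 internal exons with 2775 bases, joined 005809F:15412-25579, with 28.4 CPM in meristem, 38.9 in stem and 6.57 in leaf, to 000069F:1142296-1152580, with 43.3, 49.8 and 11.7 CPM. Their smaller folds over leaf were 4.32 and 3.70, so the fold limit parts 2 loci of like structure and like levels. Look-alikes were searched for after the values of the 208 loci had been seen, and fragments that align to several places may be missing from both.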
